A study of Homo sapiens with 2 samples.

Results

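Translation initiation, elongation and release factors were followed in RNA recovered by immunoprecipitation from 293T cells, a human line of embryonic kidney origin that carries the SV40 large T antigen. The group held 50 genes taken from a fixed list of symbols: the subunits of eIF2, eIF2B and eIF3, the eIF1, eIF4, eIF5 and eIF6 factors, the elongation factors eEF1 and eEF2, the release factors, the cytoplasmic poly(A)-binding proteins, and TPT1, NACA and BTF3. Of the 50, 43 were detected on the arrays, out of 13150 detected genes in all. EIF3C and EIF4A2 each had 1 probe set with a single gene symbol, which was below the detection level. Their probe sets with several symbols were left out. EIF4A1, EIF4G3, EEF1B2, EEF1G and PABPC4 had no probe set with a single gene symbol in the platform annotation and were not analysed here.

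The data were 2 Affymetrix U133 Plus arrays, 1 per group. In the miR-941 group the transfected oligonucleotide was Synthetic miR-941 and the RNA was recovered with an antibody to Ago2, an Argonaute protein that carries microRNAs to mRNAs. In the control group it was a scrambled oligo. Both oligonucleotides were used at 30 nmol/l, and both sets of cells were the same 293T line with no other allele or agent named. By its title and description the control is an Ago2 precipitate, whereas its antibody entry names nonimmune IgG beads; if that entry holds, what the antibody contributes to a difference cannot be told apart from what the oligonucleotide does. No input RNA array was analysed here, so recovery with the beads, mRNA level per cell and cell number cannot be told apart in any difference below. With 1 array per group there is no replicate error and no test, and every difference compares these 2 arrays.

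Protein synthesis starts when eIF2 with GTP brings the initiator tRNA to the small ribosomal subunit, which eIF1, eIF1A, eIF3 and eIF5 help to hold in a state that can accept it. The eIF4 factors and the poly(A)-binding protein bring in the mRNA through its cap and tail, eIF5B joins the large subunit, eEF1 and eEF2 carry out elongation, and the release factors end it. Argonaute complexes repress mRNAs partly at the initiation step and partly through the poly(A) tail. Many mRNAs of this apparatus begin with a cytosine followed by a run of pyrimidines, the 5' terminal oligopyrimidine (TOP) tract, through which their translation follows mTOR.

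The microRNA that was added is shown for what the arrays compare. It is 23 bases long, and RefSeq (GRCh38.p14) lists 5 copies with the same mature sequence, the first at chr20:63919495-63919517 on the + strand. Capitals mark the seed, bases 2 to 8, which pairs with target mRNAs. Target sites for it in the mRNAs of these factors were not analysed here.
hsa-miR-941: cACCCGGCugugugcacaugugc

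The TOP tract is a sequence feature that the gene list did not use, so the first bases of the members were read from RefSeq. Of 41 members with a start in the RefSeq table (GRCh38.p14), 13 (31.7%) had at least 1 start that was a C followed by 4 or more pyrimidines (C or T), read on the sense strand from the annotated first base. Over all 27305 genes in the table the share was 5.14%, over the detected genes 6.95%, and over the cytosolic ribosomal protein genes 74.6% of 63. The 11 such starts of detected members are shown as 30-base windows, 15 before and 15 from the annotated first base, with the pyrimidine tract in capitals. EIF2S1 and EIF3B, with starts of another kind, follow for contrast and have no capitals.
EIF3F (chr11:7987322-7987351, + strand): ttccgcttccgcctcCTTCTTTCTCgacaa
EIF3K (chr19:38619173-38619202, + strand): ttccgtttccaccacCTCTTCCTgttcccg
EIF3M (chr11:32583816-32583845, + strand): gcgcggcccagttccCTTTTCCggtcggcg
EIF3D (chr22:36529152-36529181, - strand): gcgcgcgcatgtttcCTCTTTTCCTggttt
EIF2S3 (chrX:24054941-24054970, + strand): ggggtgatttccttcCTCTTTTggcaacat
EIF4B (chr12:53006441-53006470, + strand): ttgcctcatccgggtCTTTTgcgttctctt
EEF1A1 (chr6:73521018-73521047, - strand): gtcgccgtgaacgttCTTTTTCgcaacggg
EEF2 (chr19:3985449-3985478, - strand): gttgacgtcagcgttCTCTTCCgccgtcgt
TPT1 (chr13:45341169-45341198, - strand): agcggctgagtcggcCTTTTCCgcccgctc
NACA (chr12:56725285-56725314, - strand): acgctctcgctcggtCTTTCTgccgccatc
BTF3 (chr5:73498427-73498456, + strand): tgtcacttccggcctCCCTTTagctgccat
EIF2S1 (chr14:67360313-67360342, + strand): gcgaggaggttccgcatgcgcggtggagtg
EIF3B (chr7:2354812-2354841, + strand): ccccgtcgcacgcacatggctgggctgtag

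Values are RMA values deposited by the authors, 1 per probe set and read as log2, and a difference is the miR-941 value minus the control value. The brightest probe set stood for each gene, which counted as detected if its mean over both arrays exceeded 0.92, the median over all probe sets. Array medians were 0.92 (control) and 0.98 (miR-941). The only spread available is that between probe sets of 1 gene on the same arrays: the differences of the 2 brightest detected probe sets had a within-gene SD of 0.29 over 6106 genes and 0.15 over the 29 members with 2 or more. Probe sets of a gene are not replicates. The 5' control probe set of the ACTB mRNA differed by -0.66 and its 3' control by -0.04, and those of GAPDH by -0.19 and 0.05; the part of this in the differences below was not tested. Of 12 kidney, neural and filament genes known from HEK293, the parent line, 10 were detected, of which 5 were higher with miR-941 and 5 lower. The neuronal filament genes among them differed by 0.39 (NEFL), -0.26 (NEFM) and -0.59 (INA, the only one past 1.5-fold). Of 18 markers of other cell types with a probe set, 8 passed the detection level, all reading between 0.66 and 2.72 on the control array and between 0.80 and 2.48 on the miR-941 array; VWF, at 0.73, was the only one of these past 1.5-fold, and their part was not tested.

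The translation factors as a group differed little between the arrays. The differences of the 43 detected members ran from -0.59 (EIF5A) to 0.43 (EIF2S1), with a median of 0.04 and an SD of 0.20; the median over all detected genes was 0.00. Of the 111 detected probe sets of the members, 5 differed by 1.5-fold or more (2 higher, 3 lower), against 7.67% of all detected probe sets with 1 symbol. That share includes many dim probe sets. Above the 75th percentile of level, 1 of 94 member probe sets was higher and 2 were lower by 1.5-fold. Of all 12241 probe sets with 1 symbol above that level, 170 were higher and 324 lower by as much. None of the 43 genes differed by 2-fold, where 0.517% of all detected genes did. One, EIF5A, differed by 1.5-fold (0.585 on the log2 scale), where 5.82% of all detected genes and 1.75% of the 6343 genes within the members' range of level did. As deposited, 24 members were higher with miR-941 and 19 lower, against 46.3% of all detected genes higher and 42.4% lower, with 1481 equal. Of the 6343 genes within the members' range of level 3104 (48.9%) were higher, 2935 lower and 304 equal. With a loess trend of difference on level removed the split turned to 20 higher and 23 lower, with a median of -0.01. Of the 43, 5 differed by more than the within-gene SD of 0.29, where 27.2% of all detected genes did. That share also covers dim genes, whose differences are wider. Genes within the members' range of level had an SD of 0.23.

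**Figure D1:**
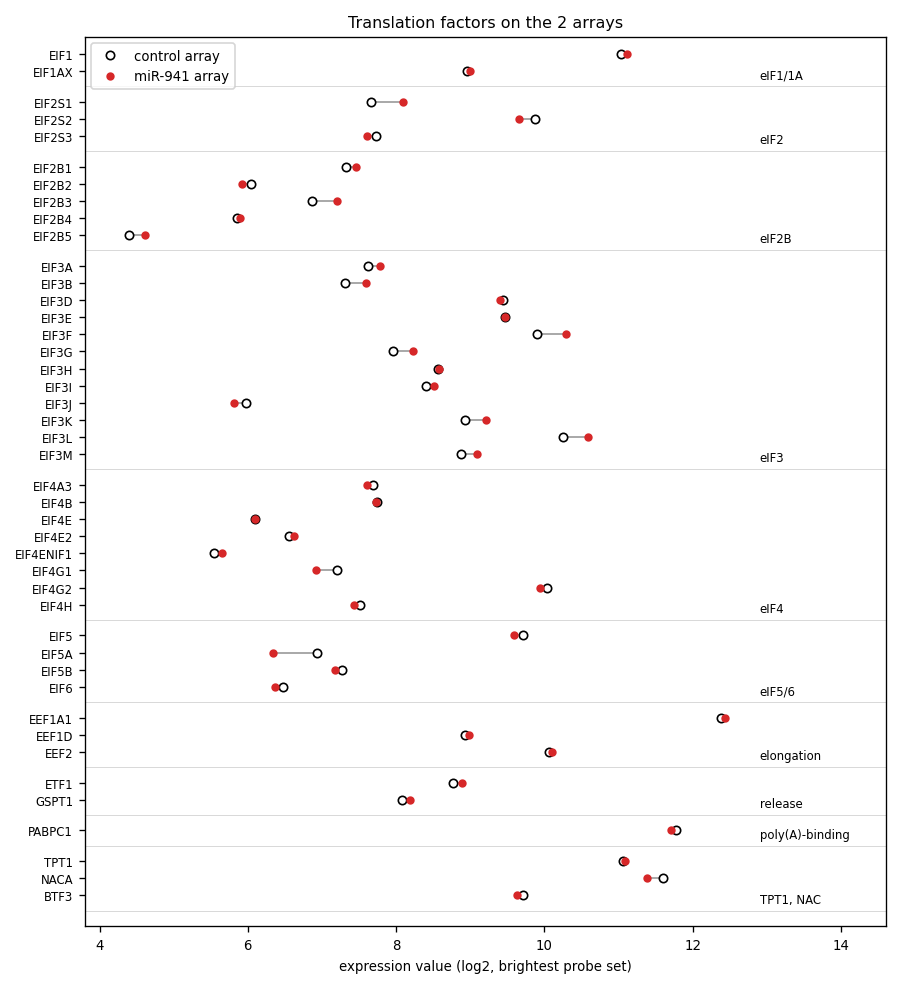
Expression value (log2, brightest probe set) of each of the 43 detected translation factors on the control array (open circles) and the miR-941 array (red circles), 1 array each, grouped by factor complex. The pairs lie close together; the longest lines are those of EIF5A (6.93 control, 6.34 miR-941) and EIF2S1 (7.65 and 8.09). Levels of different genes come from different probes and are not comparable.

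The 3 subunits of eIF2, the GTP-binding carrier of the initiator tRNA, did not differ in the same direction. EIF2S1, the alpha subunit whose phosphorylation slows initiation under stress, read 7.65 (control) and 8.09 (miR-941), a difference of 0.43. Its other probe sets read 6.06 and 6.33 (0.27) and 5.71 and 5.92 (0.21), so all 3 were higher on the miR-941 array. EIF2S2, the beta subunit, read 9.87 and 9.66, and both of its probe sets were lower (-0.21 and -0.19). EIF2S3, the gamma subunit that binds GTP and the tRNA, read 7.73 and 7.60, a difference of -0.13. All 3 EIF2S3 probe sets were lower, and the dimmest had the largest difference, reading 5.77 and 5.17 (-0.60). The gene for the alpha subunit thus stood on the opposite side of 0 from the genes for its partners on every detected probe set of all 3 genes.

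eIF2B, the factor that reloads eIF2 with GTP, was higher on the miR-941 array for 4 of its 5 subunits, with a median difference of 0.13. Of all detected genes 46.3% were higher, with a median of 0.00. The catalytic subunits had the larger differences. EIF2B3, the gamma subunit, read 6.87 (control) and 7.21 (miR-941) (0.34), and EIF2B5, the epsilon subunit that holds the exchange activity, read 4.39 and 4.62 (0.23). The regulatory subunits, which sense phosphorylated eIF2, had a median of 0.05. Among these, EIF2B1 (alpha) read 7.32 and 7.46 (0.13), EIF2B4 (delta) 5.85 and 5.90 (0.05) and EIF2B2 (beta) 6.04 and 5.93 (-0.11). Only EIF2B4 had a second detected probe set, which differed by 0.06, so the remaining values rest on 1 probe set each.

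eIF3, the largest initiation factor and the scaffold on which the small ribosomal subunit meets the mRNA, was higher on the miR-941 array for 9 of 12 detected subunits as deposited, for 8 of 12 with the loess trend removed, and for 10 of 12 with each array centred. Of all detected genes 46.3% were higher as deposited, 48.7% with the trend removed and 58.5% with each array centred. The median difference of the subunits was 0.19 (0.16 with the trend removed), where the median over all detected genes was 0.00 (-0.01). Over the subunits' 25 detected probe sets 17 were higher and 8 lower, where 44.2% of all detected probe sets with 1 symbol were higher. None of the 12 reached 1.5-fold.

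Within eIF3, the PCI and MPN subunits, which build its structural core, included the highest and a near-zero value. EIF3F, an MPN subunit, read 9.90 (control) and 10.29 (miR-941) (0.39), and its dim second probe set read 1.15 and 1.38 (0.23). EIF3L, with 1 probe set, read 10.25 and 10.59 (0.34). EIF3K read 8.93 and 9.22 (0.28). All 3 EIF3K probe sets were higher, its dimmer ones by 0.18 and 0.22, which makes it the eIF3 subunit with the most probe sets on 1 side only. EIF3M read 8.87 and 9.09 (0.22), with a second probe set at 0.35 and the dimmest at -0.23, which read 1.25 and 1.02, near the detection level. EIF3A, the largest subunit, read 7.63 and 7.78 (0.16), and its other probe sets differed by -0.06 and 0.03. EIF3H, the other MPN subunit, read 8.56 and 8.58 (0.02), and EIF3E 9.47 on both arrays (-0.01). The 7 detected core subunits therefore split into 4 at 0.22 or more and 3 at 0.16 or less.

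The eIF3 subunits outside that core were also mixed. EIF3B, whose product anchors the b-g-i module, read 7.30 and 7.59 (0.29), and its next probe set differed by 0.24. The next in brightness read 6.76 and 6.71 (-0.04), and the remaining pair, which read below 2 on both arrays, had 0.63 and -0.52, so 3 of its 5 probe sets were higher and 2 lower. EIF3G, an RNA-binding subunit, read 7.95 and 8.23 (0.28), and EIF3I 8.41 and 8.51 (0.10). EIF3D, which can itself bind the cap of some mRNAs, read 9.43 and 9.40 (-0.03). EIF3J, a loosely attached subunit, read 5.98 and 5.82 (-0.17), but its second probe set was higher by 0.21.

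**Figure D2:**
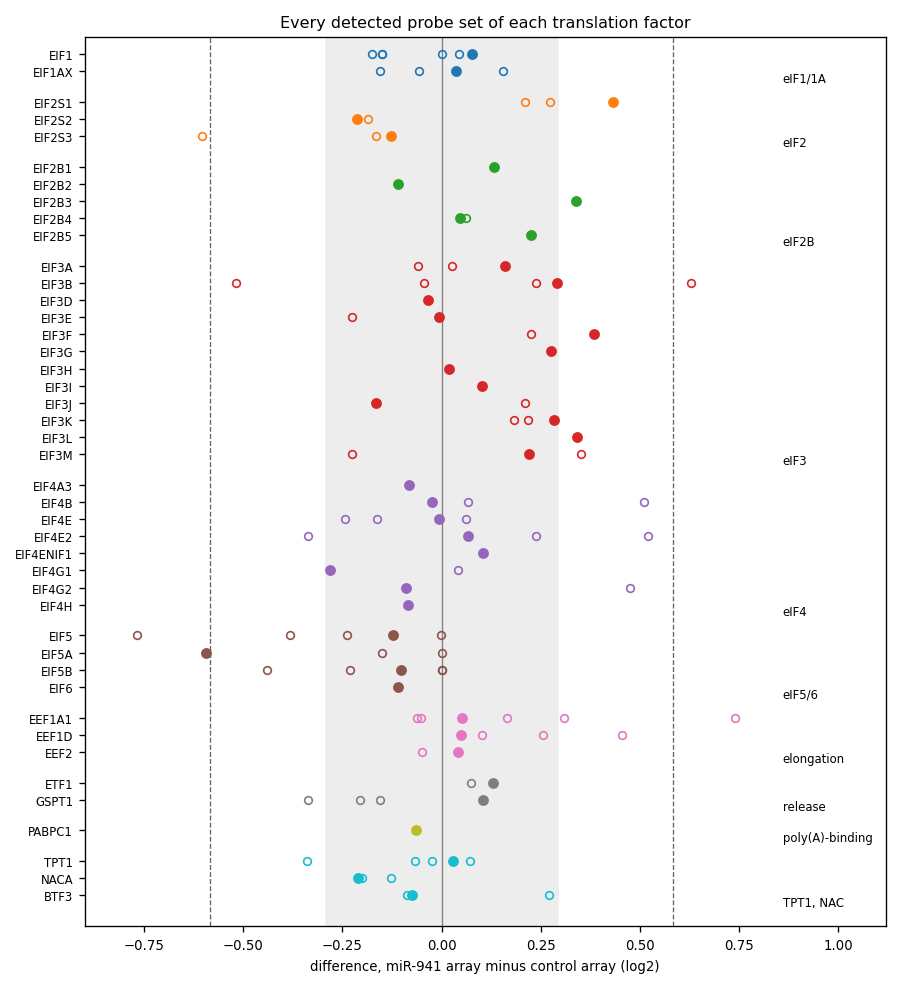
Difference between the arrays (miR-941 minus control, log2) for each of the 111 detected probe sets of the 43 members, filled for the brightest and open for the others. The grey band is the within-gene SD of 0.29 either side of 0 and the dashed lines are 1.5-fold; the 3 EIF2S1 and 3 EIF3K probe sets all lie right of 0, while no probe set of EIF5, EIF5A, EIF5B or EIF6 does.

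The eIF4 group lay near 0, and its 8 detected members ran from -0.28 to 0.10, with a median of -0.05. Of the 8, 6 were lower as deposited or with the trend removed, 5 with each array centred and 4 averaged over probe sets. Of all detected genes 42.4% were lower and 46.3% higher as deposited. The share higher was 48.7% with the trend removed, 58.5% with each array centred and 47.7% averaged over probe sets. EIF4E, which binds the cap, read 6.10 (control) and 6.09 (miR-941) (-0.01). A second EIF4E probe set of like brightness read 6.14 and 5.97 (-0.16), and 3 of its 4 detected probe sets were lower, with a median of -0.08. EIF4G1, the scaffold that joins the cap-binding protein to eIF3 and to the poly(A)-binding protein, read 7.21 and 6.92 (-0.28), with a second probe set at 0.04. EIF4G2, a relative that lacks the cap-binding contact, read 10.03 and 9.94 (-0.09), while its dim second probe set read 0.76 and 1.23 (0.47), which turns its mean over probe sets to 0.19. EIF4B and EIF4H, partners of the helicase eIF4A, had -0.02 and -0.09. The other EIF4B probe sets were higher, by 0.07 and 0.51, the latter reading 4.11 and 4.62. EIF4A3, the helicase of the exon junction complex, had -0.08. EIF4E2, a cap-binding repressor relative of EIF4E, had 0.07 on its brightest probe set and values from -0.34 to 0.52 over 4. EIF4ENIF1, the transporter that ties eIF4E to RNA decay bodies, read 5.54 and 5.64 (0.10).

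EIF1 and EIF1AX, whose products guard the choice of start codon, differed by less than 0.1 on their brightest probe sets. EIF1 read 11.04 and 11.11 (0.08), and over its 6 detected probe sets 2 were higher, 3 lower and 1 equal. EIF1AX read 8.96 and 9.00 (0.04), with 2 of 4 probe sets lower. Averaged over probe sets both genes were slightly lower, with a median of -0.03, and without probe sets of the suffixes _x_at and _s_at their median was -0.17. By the array's naming, _x_at probe sets can hold probes that match other transcripts and _s_at probe sets match several transcripts.

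The genes for eIF5, eIF5A, eIF5B and eIF6, which do not form a complex, were all lower on the miR-941 array. This held as deposited, with the loess trend removed and with each array centred. Of all detected genes 42.4% were lower as deposited. The share higher was 46.3% as deposited, 48.7% with the trend removed and 58.5% with each array centred. Of their 14 detected probe sets 11 were lower, 3 equal and 0 higher, where 43.4% of all detected probe sets with 1 symbol were lower. Above the 75th percentile of level 10 of 12 were lower and 2 equal, where 48.1% of all such probe sets were lower. The median over the 4 genes was -0.12. EIF5A, the hypusine-bearing factor that eases elongation through difficult stretches, read 6.93 (control) and 6.34 (miR-941), 1.51-fold lower (-0.59). Its other probe sets, both _x_at, read 5.26 and 5.11 (-0.15) and 5.17 on both arrays. Its median over probe sets was -0.15 and its mean -0.25, so the call at 1.5-fold holds for the brightest probe set and for neither average. It is also lost when each array is centred on its median over detected genes, since it lies just past the limit.

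EIF5, the activator of GTP hydrolysis by eIF2, read 9.71 and 9.59 (-0.12) on its brightest probe set. Its other probe sets had -0.0020, -0.38, -0.24 and -0.77, the last reading 3.45 and 2.68, so all 5 were lower with a median of -0.24. EIF5B, the GTPase of subunit joining, read 7.27 and 7.17 (-0.10), and of its 5 detected probe sets 3 were lower and 2 equal, down to -0.44. EIF6, which keeps the large subunit from joining early, read 6.48 and 6.37 (-0.11) on 1 probe set.

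**Figure D3:**
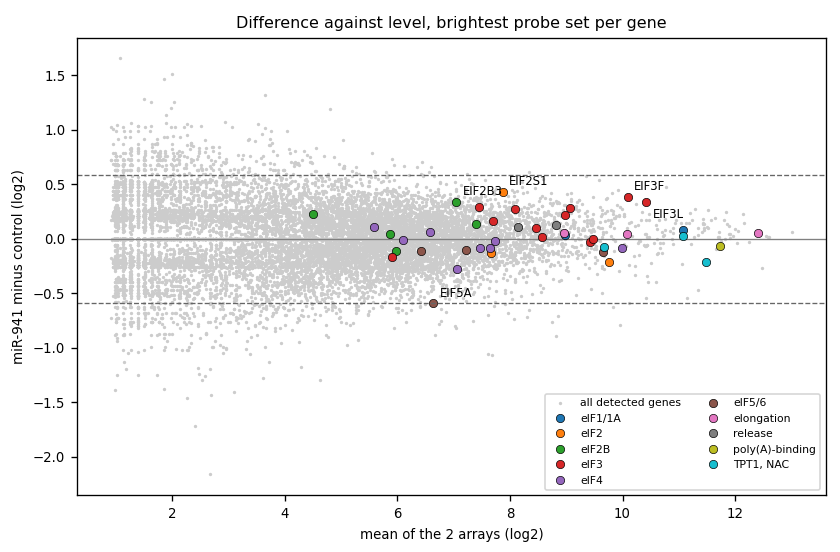
Difference between the arrays (log2) against the mean of the 2 arrays (log2) for all 13150 detected genes (grey) and the 43 members (coloured by complex), brightest probe set per gene; dashed lines mark 1.5-fold. The members sit in the bright range from 4.50 to 12.4, where the differences of all genes are narrower than among dim genes, and EIF5A alone reaches a dashed line.

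The elongation factor genes were nearly equal on the 2 arrays. EEF1A1, whose product delivers aminoacyl-tRNA to the ribosome, read 12.38 (control) and 12.43 (miR-941) (0.05). EEF1D, part of the exchange factor for eEF1A, read 8.93 and 8.98 (0.05), and EEF2, the translocation GTPase, 10.06 and 10.10 (0.04). A second EEF2 probe set of like brightness read 10.08 and 10.03 (-0.05). All 3 genes were higher on the brightest probe set as deposited, 2 of 3 when averaged over probe sets, and only EEF1D with the loess trend removed. Of all detected genes 46.3% were higher as deposited, 47.7% averaged over probe sets and 48.7% with the trend removed. All 4 EEF1D probe sets were higher, by 0.05 to 0.46, the larger values coming from probe sets that read near 2. The 4 bright EEF1A1 probe sets, all _x_at, differed by -0.06 to 0.17, whereas a probe set of plain _at type read 3.94 and 4.68 (0.74). A dimmer _at probe set of EEF1A1 read 1.11 and 1.42 (0.31). Without the _x_at and _s_at types the brighter _at probe set alone stands for the elongation group. The value 0.74 thus describes a dim signal of a gene whose bright probe sets lie near 0.

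Of the release factors, ETF1, the eRF1 that reads stop codons, had 8.76 and 8.89 (0.13), and its second probe set was higher by 0.07. GSPT1, the GTPase eRF3, read 8.09 and 8.19 (0.10) on an _x_at probe set, but its other 3 were lower (-0.16, -0.21 and -0.34), which gave a median of -0.18. PABPC1, the main cytoplasmic poly(A)-binding protein and a partner of the TNRC6 proteins of Argonaute complexes, read 11.77 and 11.70 (-0.06) on its 1 detected probe set.

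TPT1, a translationally controlled growth protein, read 11.06 (control) and 11.08 (miR-941) (0.03), with 2 of 5 probe sets higher. NACA and BTF3 encode the alpha and beta subunits of the nascent polypeptide-associated complex, which covers the chain as it leaves the ribosome. NACA read 11.59 and 11.38 (-0.21), and all 3 of its probe sets were lower (-0.21, -0.20 and -0.13). BTF3 read 9.71 and 9.64 (-0.07), with 1 of 3 probe sets higher by 0.27.

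Agreement between probe sets singled out 6 members with 3 or more. Of 20 such members, EIF2S1, EIF3K and EEF1D were higher on all probe sets and EIF2S3, EIF5 and NACA lower on all, 30.0% against 19.1% of the 2578 detected genes with as many. Of 9 members with exactly 2, 5 had both on the same side, where 44% of genes did. Averaged over probe sets these 6 had 0.31 (SD 0.11, 3 probe sets) for EIF2S1, 0.23 (SD 0.05, 3) for EIF3K, 0.22 (SD 0.18, 4) for EEF1D, -0.30 (SD 0.26, 3) for EIF2S3, -0.30 (SD 0.30, 5) for EIF5 and -0.18 (SD 0.05, 3) for NACA. Another 16 of the 29 members with 2 or more probe sets had values on both sides of 0.

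The members with a pyrimidine start, whose windows are printed above, had a median close to that of the other members. The 11 detected ones had a median difference of 0.03, with 6 higher and 5 lower, and the 24 detected members with other starts had 0.04, with 13 higher and 11 lower. With the loess trend removed the first group had 3 higher and 8 lower, and a median of -0.03, and the second a median of 0.0092. Of all detected genes 48.7% were then higher. Counting only tracts of 7 or more bases, a limit chosen after seeing the data, gave a median of 0.05 with 6 higher and 2 lower, and of -0.0070 for the other 27 with 13 higher and 14 lower, so the order of the medians turned. The 11 spanned -0.21 (NACA) to 0.39 (EIF3F): the 3 highest were EIF3F, EIF3K and EIF3M, and the lowest besides NACA was EIF2S3. Over all detected genes the 740 with such a start had a median of 0.00, with 359 higher and 305 lower. The 9908 without also had a median of 0.00, with 4595 higher and 4251 lower. For tracts of 7 or more, 399 detected genes had a median of 0.02, with 203 higher and 158 lower. The other 10249 had a median of 0.00. A list of 11 members known for TOP mRNAs, of which 9 were detected, had a median of 0.03 with 6 higher and 3 lower. It includes EIF3E, EIF3H, EEF1D and PABPC1, whose starts are not shown.

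**Figure D4:**
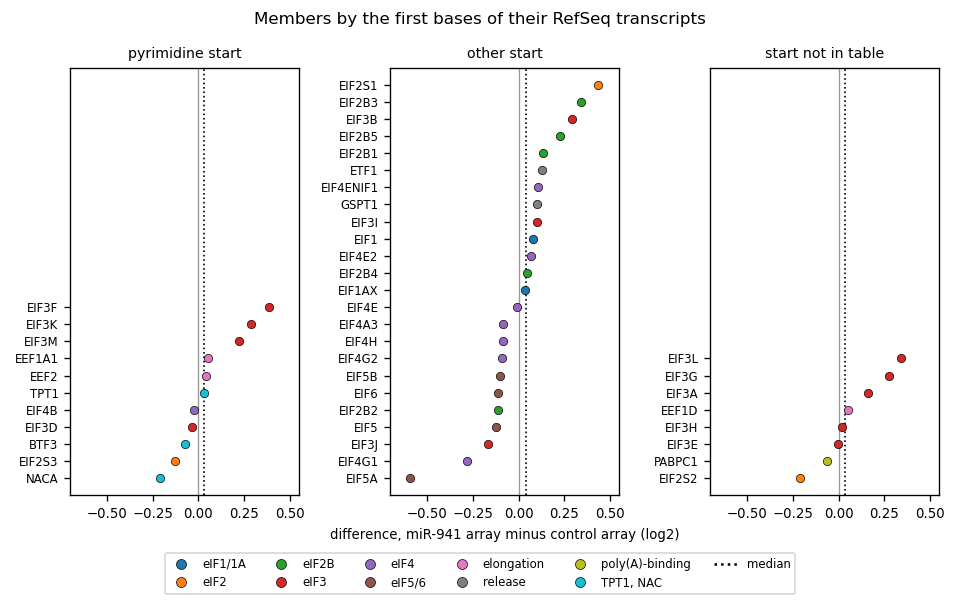
Difference between the arrays (log2, brightest probe set) for the 43 detected members, split by whether an annotated RefSeq start is a C followed by 4 or more pyrimidines (11 members), is another start (24) or has no entry in the table (8), with colours for the complexes and a dotted line at each median. The medians of the first and second panel are 0.03 and 0.04, and EIF3F, EIF3K and EIF3M lie at the top of the first.

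Other genes of the translation apparatus differed in how one-sided they were, where 46.3% of all detected genes were higher. Of 44 detected regulators and relatives of these factors, 19 were higher and 22 lower, with a median of -0.0017 and none past 1.5-fold. The ribosome rescue factor PELO had 0.36 and the factor relative EIF5A2 0.27, while PPP1R15B, which directs the phosphatase of eIF2 alpha, read 7.28 and 6.86 (-0.42) and the S6 kinase RPS6KB2 had -0.48. Of 18 detected cytosolic aminoacyl-tRNA synthetases and their partners 14 were higher (median 0.15), from KARS1 at 0.45 and GARS1 at 0.29 to TARS1 at -0.20 and FARSB at -0.22. Of the 2 KARS1 probe sets 1 was lower, and their median was 0.22. Of 10 mitochondrial translation factors 8 were higher (median 0.12), with MTRFR at 0.83 on its brightest probe set and 0.04 as the median of 3, TSFM at 0.43, MTIF3 at -0.02 and MTRF1 at -0.09. The 52 detected ribosomal proteins had a median of 0.07 beside the 0.04 of the factors, with 45 higher and 7 lower. The loess trend of difference on level, which ran from -0.01 to 0.07 over all detected genes, was not removed from these lists. Removing it took the bright EEF1A1, at 12.38 on the control array, from 0.05 to -0.02. Its part in the ribosomal split was not tested. RPLP2 at 0.53 and RPL27A at 0.30 were highest and RPL31 at -0.09 and RPL8 at -0.15 lowest. On the control array RPLP2 and RPL27A read 4.09 and 5.71, dimmer than RPL31 at 11.70 and RPL8 at 10.37.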

How the data were processed

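The 2 arrays of immunoprecipitated RNA, 1 per group, were compared; groups follow the transfected oligonucleotide. The log2 values are RMA expression values per probe set that the authors quantified in R, per the labels and the series' design text. RMA, affy and MAS5 appear, with no version, in the submitters' processing notes. The log2 scale was taken from the values, which reach 13.7, and any centring is not given in the sources used here. With 1 array per group the number of arrays limits the precision, and no test was possible. Of 54675 probe sets, 41091 had 1 gene symbol in the platform annotation, 1801 several, 11721 none and 62 were controls. By Entrez identifier 41037 were matched to RefSeq (GRCh38.p14), whose symbol was used. Every member is named, and of each further list of translation genes the 2 highest and 2 lowest detected genes and any past 1.5-fold. The members and lists were chosen with earlier results of these data known, and the pyrimidine rule after the values were seen. Computation used Python 3.11.15, pandas 2.3.3 and the loess of statsmodels 0.14.6 (span 0.3). On simulated differences without noise, known shifts came back through the choice of the brightest probe set. This checks the code and not the precision of the values.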

Additional observations from a re-analysis of the deposited data

How the results depend on the processing

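The alternatives were the mean or the median over probe sets, leaving out _x_at and _s_at probe sets, dropping the level filter or raising it to the 75th percentile, removing a loess trend, centring the arrays and setting low values to the detection level; a pyrimidine tract of 7 or more was added after seeing the data. Of 137 group values under an alternative, 129 stayed within 1.5 times (counts) or within the within-gene SD divided by the root of the number of genes (medians). Neither raising the level filter nor setting low values could move these values. Every detected member read above the 75th percentile (3.37) and the detection level. The limit for medians also let a change of sign pass, as for the release factors (0.12 as reported, -0.02 with the mean over probe sets). The count past 1.5-fold, 1 as reported, was 0 with the mean or median over probe sets and with centred arrays, and 3 without _x_at and _s_at probe sets (EIF3B, EIF5 and EEF1A1, on dimmer probe sets). That setting also gave medians of -0.17 for eIF1, -0.38 for eIF5 and 0.74 for elongation; other probe sets then stand for the genes. With the loess trend removed the median of all members was -0.0082 (0.04 as reported). No paired analysis was possible because there is a single array in each group, so none could be left out either. Detected members read from 4.50 to 12.4, so none was limited by the detection level.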

Other observations

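For EIF3C, EIF4A2 and EIF5, and for 4 of the 5 members without a single-symbol probe set, some probe sets list the member beside another gene. Such probe sets were left out of the comparison. There were 14, of which 12 were above the detection level; with miR-941 11 of these were higher and 1 was lower, with differences from -0.0037 to 0.35 and a median of 0.07, and none reached 1.5-fold. Of all detected probe sets with 1 symbol 44.2% were higher, and of the members' own 111 probe sets 53 were higher and 54 lower.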
